A study of Mus musculus with 4 samples.

Results

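GABA-A receptor subunit transcripts were examined for 7 genes, Gabra2, Gabra3, Gabra4, Gabra5, Gabrb1, Gabrb2 and Gabrd, out of 35427 genes in the files. They were chosen by name, and all of their 27 annotated transcripts were summed per gene, of which 17 had reads in at least 1 file. The series profiled RNA from the hippocampus of C57BL/6J mice, 4 months old, that carried P2RY12CreER and Rpl22HA. In this line a Cre recombinase driven by a microglial gene switches on a tagged ribosomal protein, and ribosomes with their messages are pulled down by the tag. All mice were fear conditioned. Controls then slept for 6 h, and the sleep-deprived group was kept awake for 6 h. Each group had 2 files, each from 2 pooled mice, and groups were taken from the sample titles, since the treatment field names sleep deprivation for every sample.

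GABA-A receptors are chloride channels built from 5 subunits around a pore, usually alpha and beta subunits with a gamma or a delta subunit, and they carry most fast inhibition in the brain. Receptors with alpha2 or alpha3 sit mainly at synapses and answer brief pulses of GABA. Receptors with alpha5 or delta lie mainly outside synapses and carry a steady, tonic current. In the textbook hippocampus alpha5 is abundant in pyramidal cells and delta pairs with alpha4 in dentate granule cells, whereas in cerebellar granule cells delta pairs with alpha6. These are neuronal channels for the most part. No RNA from ahead of the pulldown enters here, so the values below cannot be assigned to microglia.

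The files held between 14431647 and 14877011 estimated reads. Gene counts of the control files gave a chi-square of 0.335 for each degree of freedom, those of the sleep-deprived files 0.226, and files of different groups 69.2 to 69.4. Within a group the files differed by less than sampling noise, and their mean was counted as 1 sample (n = 1 per group). No p-value is therefore given, and nothing below has a replicate check. The labelled tissue was checked against marker genes before the subunits were compared. Gabra6, which encodes alpha6 and is not among the 7 genes, had the highest level of all 19 GABA-A receptor subunit genes, at 415 and 417 TPM (a relative abundance scaled for transcript length) in the control files and 666 and 671 TPM in the sleep-deprived files. A list of 15 cerebellar granule cell markers, chosen like Gabra6 after values had been seen, had a median of 152 TPM in control and 157 TPM after sleep deprivation. In contrast, 10 telencephalic markers, also chosen after values had been seen, had medians of 0.423 and 0.336 TPM. Of these, the forebrain transcription factor genes Emx1 and Emx2 lay between 0 and 2 reads. The highest were Nrgn, at 12.9 and 15.3 TPM, and Camk2a, at 12.1 and 14.3 TPM. Markers of dentate granule cells, CA1 and CA3 pyramidal cells had medians between 2.13 and 8.14 TPM. These values go against the hippocampal label in both groups, and "labelled hippocampus" is therefore meant wherever the tissue is named. What part tissue from another region has in the subunit values was not tested.

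**Figure D1:**
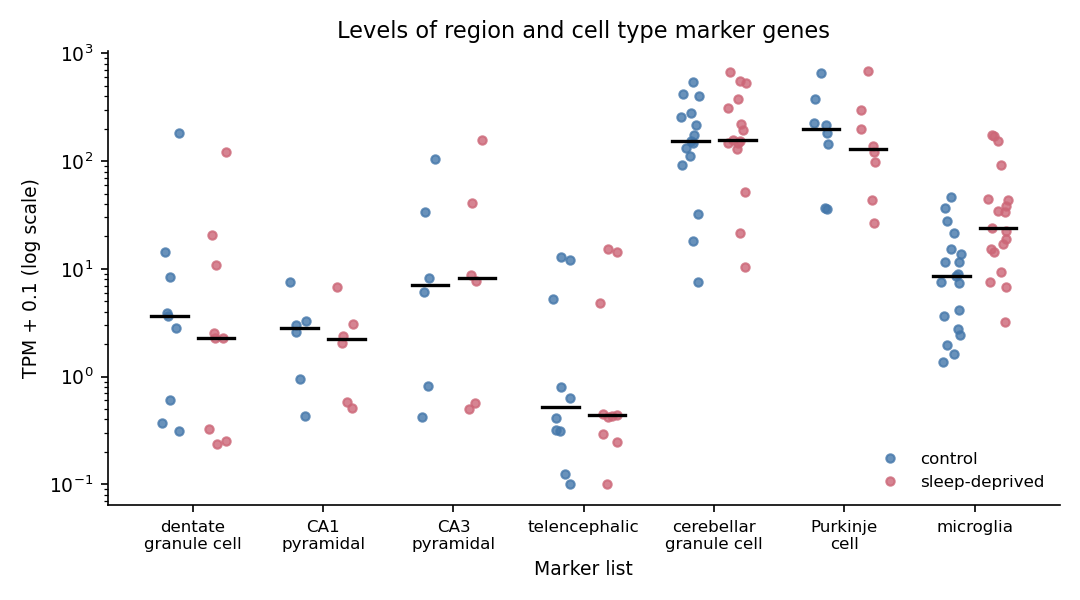
TPM plus 0.1 (log scale) of each gene of 7 marker lists in the control (blue) and sleep-deprived (red) libraries, with a black bar at each list's median. Cerebellar granule cell markers have medians of 152 and 157 TPM and telencephalic markers medians of 0.423 and 0.336 TPM.

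The subunit results turned on which transcript of a gene the reads were assigned to, so the sequences at the places where the main transcripts differ are shown first. Gabrd lies on the minus strand of chromosome 4, from 155384980 to 155398112 (GRCm38, which mm10 denotes). Its protein-coding transcript Gabrd-201 splices out introns 6 and 7, of 595 and 256 bases. Gabrd-203, annotated as a processed transcript with no reading frame, keeps both introns, and these 851 bases are all that it holds beyond Gabrd-201. Both kept introns begin with GT and end with AG, the usual splice site letters. In the lines below, taken from GENCODE transcript sequences and written 5′ to 3′ in the sense of the gene, lower case is the last 20 bases of the exon and capitals are the 40 bases that follow. The capitals are the next exon in Gabrd-201 (chr4:155386519-155386558 and chr4:155386107-155386146) and kept intron in Gabrd-203 (chr4:155387114-155387153 and chr4:155386363-155386402).
Gabrd-201 at intron 6: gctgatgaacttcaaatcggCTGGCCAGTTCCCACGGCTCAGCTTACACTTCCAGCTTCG
Gabrd-203 at intron 6: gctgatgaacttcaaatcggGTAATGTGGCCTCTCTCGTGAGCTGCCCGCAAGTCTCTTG
Gabrd-201 at intron 7: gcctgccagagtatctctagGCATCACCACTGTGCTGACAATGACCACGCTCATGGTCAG
Gabrd-203 at intron 7: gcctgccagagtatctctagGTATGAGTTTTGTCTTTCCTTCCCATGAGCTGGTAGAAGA

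Gabra2 lies on the minus strand of chromosome 5, from 70957597 to 71095849. The coding transcript Gabra2-203 and Gabra2-204, annotated as a target of nonsense-mediated decay (the removal of messages with an early stop), differ at the start of exon 5. Gabra2-204 skips the first 61 bases of that exon (chr5:71014576-71014636), shown in capitals between 20 bases of exon 4 and 20 bases of the rest of exon 5.
Gabra2-203: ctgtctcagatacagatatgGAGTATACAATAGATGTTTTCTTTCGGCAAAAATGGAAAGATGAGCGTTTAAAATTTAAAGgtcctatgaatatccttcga
Gabra2-204: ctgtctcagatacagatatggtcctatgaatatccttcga
Gabra2-204 also ends 1884 bases earlier in the last exon and starts 40 bases later. Every base of Gabra2-204 also lies in Gabra2-203, so away from the joint shown a read of Gabra2-204 also matches Gabra2-203, and the division of such reads is an estimate.

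Gabrd, the delta subunit of tonic receptors, was the most abundant of the 7 genes. Its estimated reads were 3843 and 3817 in the control files and 5898 and 5881 in the sleep-deprived files. In CPM (reads relative to library size after TMM scaling), Gabrd was at 254 in control (95% counting interval 246 to 263) and 416 after sleep deprivation (406 to 427). The ratio of sleep-deprived over control was 1.64 (1.57 to 1.70), under the 2-fold that was required, together with an interval excluding 1, to call a gene higher or lower. These intervals cover counting error only. A bulk ratio does not tell fewer cells of a type from less RNA per cell.

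The Gabrd reads were assigned mostly to the transcript with kept introns, and the estimates for the 2 main transcripts lay on opposite sides of 1. Since 1856 bases lie in both transcripts, most bases of Gabrd-201 do not tell them apart, and the division of reads there is an estimate whose error the intervals do not cover. Gabrd-203 held 2374 and 2355 reads in the control files and 4993 and 4897 in the sleep-deprived files. That was 61.7% of the gene's reads in control (60.2% to 63.3%, Clopper-Pearson) and 84.0% after sleep deprivation (83.0% to 84.9%). The CPM ratio of Gabrd-203 was 2.23 (2.12 to 2.34), called higher. The coding Gabrd-201 held 1467 and 1459 control reads, against 895 and 975 in the sleep-deprived files. Its ratio was 0.680 (0.626 to 0.739), not called. The ratio of Gabrd-203 to Gabrd-201 reads was thus 3.27 times higher after sleep deprivation (2.97 to 3.61). Counted on coding transcripts alone, a choice made after these values were seen, Gabrd went from 97.2 to 66.1 CPM. The third transcript, Gabrd-202, had between 2.04 and 9.18 reads in each file.

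Gabra5, the alpha subunit of tonic receptors in pyramidal cells, was the least abundant of the 7 and the only one called at the gene level. It had 75 and 74 reads in the control files, against 26 in each sleep-deprived file. All reads were assigned to the coding transcript Gabra5-202, on the minus strand of chromosome 7 (gene span 57407672 to 57510059). Its level was 4.92 CPM in control (3.86 to 6.17) and 1.84 CPM after sleep deprivation (1.20 to 2.69). The ratio was 0.374 (0.229 to 0.592), called lower. Of 14907 genes kept by the filter on low counts and called measured, 5.65% were called lower, 4.24% higher and 9.89% in either direction. With 1 of 7 members called, the members' count was close to that background. The ratio of Gabra5 stayed between 0.361 and 0.434 in the 10 alternatives tried, with the gene called lower in each of them. Those that left out 1 file could hardly move it, since the files of a group counted as 1 library. Counting coding transcripts only could not move it, since all reads were on Gabra5-202.

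**Figure D2:**
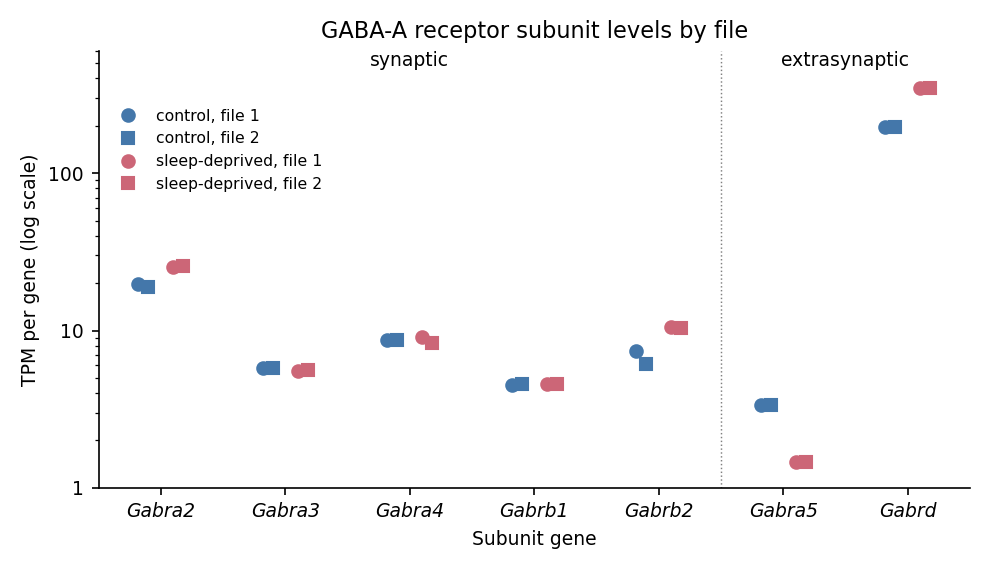
TPM summed per gene (log scale) of the 7 subunit genes in each of the 4 files, with circles for file 1 and squares for file 2 of the control (blue) and sleep-deprived (red) groups. Gabrd lies near 197 TPM in control and 348 TPM in the sleep-deprived files, above all other members, and Gabra5 is the lowest in both groups.

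Gabra2, a main synaptic alpha subunit, had 903 and 875 reads in the control files and 850 and 853 in the sleep-deprived files. The gene total did not differ beyond counting error, with 59.1 and 60.2 CPM and a ratio of 1.02 (0.926 to 1.12). Its transcripts did differ. The coding Gabra2-203 held 684 and 681 control reads, against 476 and 466 in the sleep-deprived files, a ratio of 0.735 (0.652 to 0.828). Gabra2-204 held 213 and 190 reads in control and 360.0 and 374 in the sleep-deprived files, a ratio of 1.93 (1.62 to 2.31). Neither reached 2-fold. The share of reads on Gabra2-204 was 22.7% (20.01% to 25.6%) in control and 43.1% (39.8% to 46.5%) after sleep deprivation. The minor transcript Gabra2-202, annotated as a retained intron, had 4.10 and 13.3 reads as group means and was called higher (3.46, 1.07 to 14.6).

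Gabra3, the synaptic alpha subunit encoded on the X chromosome (72432681 to 72656848, minus strand), had 185 and 184 control reads, against 142 and 143 in the sleep-deprived files. Its ratio was 0.821 with an interval that includes 1 (0.655 to 1.03). All of its reads were assigned to the coding transcript Gabra3-201. Gabra4, which encodes an alpha subunit found at synapses and, with delta, outside them, had 316 and 312 control reads, against 243 and 240 in the sleep-deprived files. Its ratio was 0.820 (0.691 to 0.973). The coding Gabra4-201 took all of its control reads, and coding transcripts took 98.6% of those after sleep deprivation.

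Gabrb1 and Gabrb2 encode beta subunits, which form the GABA binding site together with alpha subunits and are found in receptors at both places. Gabrb1 had 573 and 575 control reads, against 465 and 466 in the sleep-deprived files, all on the coding Gabrb1-201, with a ratio of 0.864 (0.763 to 0.978). Gabrb1 (71658113 to 72149037, plus strand) and Gabra4 (71569749 to 71658308, minus strand) lie head to head on chromosome 5 and share 196 bases at their starts. The sources used here do not say whether counting used strand, so reads within those bases could belong to either gene. Gabrb2, on the plus strand of chromosome 11 (42419757 to 42629028), had 197 and 199 reads in control and 283 reads in each sleep-deprived file. Its ratio was 1.52 (1.26 to 1.83), not called.

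For Gabrb2 the coding share was higher in the sleep-deprived library. The coding Gabrb2-201 held 164 and 168 control reads, against 263 and 265 in the sleep-deprived files, a ratio of 1.69 (1.39 to 2.07) from means of 166 and 264 reads. Coding transcripts took 83.9% of Gabrb2 reads in control and 93.5% after sleep deprivation. Gabrb2-204, annotated as a processed transcript, took 14.5% and 6.46%, with mean reads of 28.8 and 18.3. Its ratio was 0.661 with an interval that includes 1 (0.345 to 1.23). The control files differed in TPM, 7.45 and 6.14, because 6.29 reads of the first file were assigned to the 658-base Gabrb2-202, and none of the second. Gabrb2 was the 1 member of 7 with a coding ratio above 1. The other 6 lay below 1 on coding transcripts, against 52.5% of 14113 protein-coding genes with at least 10 coding reads in either library. Of the 7 members, 5 had the whole interval below 1 (all but Gabra3 and Gabrb2), against 32.2% of those genes. Whether an interval clears 1 also depends on a gene's number of reads.

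**Figure D3:**
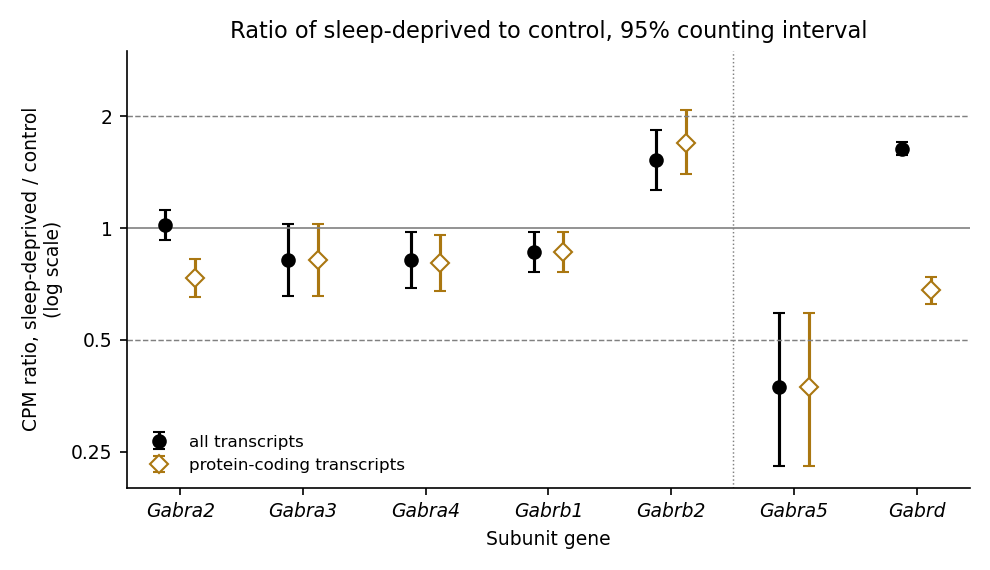
CPM ratio of sleep-deprived over control (log scale) for each subunit gene, from all transcripts (black circles) and from protein-coding transcripts only (open diamonds), with 95% counting intervals and dashed lines at 2-fold. Gabrd lies at 1.64 with all transcripts and 0.680 with coding transcripts, Gabra2 at 1.02 and 0.735, and Gabra5 at 0.374 in both.

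**Figure D4:**
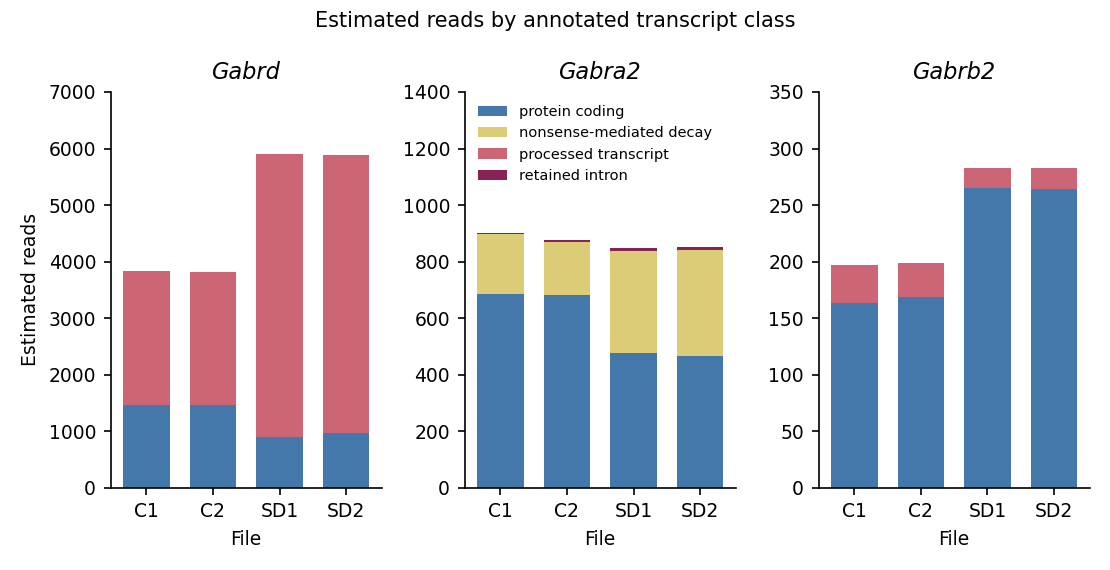
Estimated reads of Gabrd, Gabra2 and Gabrb2 in the control files (C1, C2) and sleep-deprived files (SD1, SD2), stacked by the annotated class of the transcript. The coding part of Gabrd goes from 1467 and 1459 reads to 895 and 975 beside more reads on processed transcripts, and Gabra2 totals stay between 850 and 903 reads with a larger part on nonsense-mediated decay transcripts.

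Transcript estimates moved widely between these libraries, and the members were read against that. Of 41417 transcripts with at least 10 reads in either library, 37.0% were called higher or lower, 23.5% higher and 13.5% lower. Among the members' 11 such transcripts 2 were called higher, Gabrd-203 and Gabra2-202, and 1 lower, Gabra5-202. Gabra2-202 had means of 4.10 and 13.3 reads and reached 10 reads only in the sleep-deprived library, so its call is not independent of that filter. The difference in non-coding share was also placed among other genes. Over 9535 protein-coding genes with a non-coding transcript and at least 50 reads in each library, the share of reads on non-coding transcripts was higher in the sleep-deprived library for 53.4%, with a median difference of 0.181 percentage points. Gabrd differed by 22.3 points (61.8% to 84.1%), more than 97.4% of those genes, and Gabra2 by 21.4 points (23.2% to 44.6%), more than 97.1%. Gabrb2 differed by −9.65 points, at percentile 8.84.

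The synaptic members (Gabra2, Gabra3, Gabra4, Gabrb1 and Gabrb2) and the extrasynaptic members (Gabra5 and Gabrd) were then compared as groups. Summed extrasynaptic reads were 3918 and 3891 in control and 5924 and 5907 in the sleep-deprived files, a CPM ratio of 1.61 (1.55 to 1.68). Summed synaptic reads were 2174 and 2145 in control and 1983 and 1985 in the sleep-deprived files, a ratio of 0.977 (0.919 to 1.04). The extrasynaptic ratio was 1.65 times the synaptic ratio (1.53 to 1.78). The split is not clean, since Gabra4, Gabrb1 and Gabrb2 encode subunits also found in extrasynaptic receptors. With Gabra4 moved to the extrasynaptic group the quotient was 1.55 (1.43 to 1.67). With Gabrb1 and Gabrb2 left out it was 1.70 (1.56 to 1.86). In TPM, which compares levels between genes per length, extrasynaptic members summed to 4.35 and 4.56 times the synaptic members in the control files and 6.35 and 6.44 times in the sleep-deprived files.

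The group value was that of Gabrd. Gabrd made up 98.3% of control extrasynaptic TPM and 99.6% after sleep deprivation, and the 2 extrasynaptic genes lay on opposite sides of 1. Without Gabrd, Gabra5 alone had 0.383 times the synaptic ratio (0.234 to 0.608). On coding transcripts only, the extrasynaptic sum had a ratio of 0.665 and the synaptic sum one of 0.876, so that the extrasynaptic ratio was 0.759 times the synaptic one. Both alternatives, chosen after the data were seen, turned the direction of the comparison.

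By length-scaled level summed over all transcripts, coding and non-coding, the control members were in the order Gabrd (197 TPM), Gabra2 (19.3), Gabra4 (8.67), Gabrb2 (6.80), Gabra3 (5.76), Gabrb1 (4.53) and Gabra5 (3.37). Gabrd stood 10.2 times above Gabra2 (9.48 to 11.0), and Gabra2 stood 2.23 times above Gabra4 (1.96 to 2.55). Gabrb2 and Gabra3 did not differ beyond counting error, at 1.18 times (0.960 to 1.45). The Gabrb2 sum included 0.818 TPM on Gabrb2-202, which had reads in the first control file only. Among coding transcripts in control, Gabrd-201 was at 93.3 TPM and Gabra2-203 at 12.98 TPM, so the 10.2 times holds for the sums only. Coding Gabrb2-201 was at 4.73 TPM, below Gabra3-201 at 5.76 TPM, which turns the order of that pair. Counting intervals were not computed for these transcript levels. In the sleep-deprived library Gabrb2 (10.4 TPM) came before Gabra4 (8.76 TPM), a pair that did not differ beyond counting error there (1.19, 0.999 to 1.42). The pair Gabra3 and Gabrb1 (5.54 and 4.58 TPM) did not either (1.21, 0.996 to 1.46). TPM ratios between the libraries are not used for change, because the median measured gene had a TPM ratio of 1.16, against a median log2 CPM ratio of −0.01. On TPM 1375 genes were called higher and 675 lower, against 632 and 842 on CPM.

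**Figure D5:**
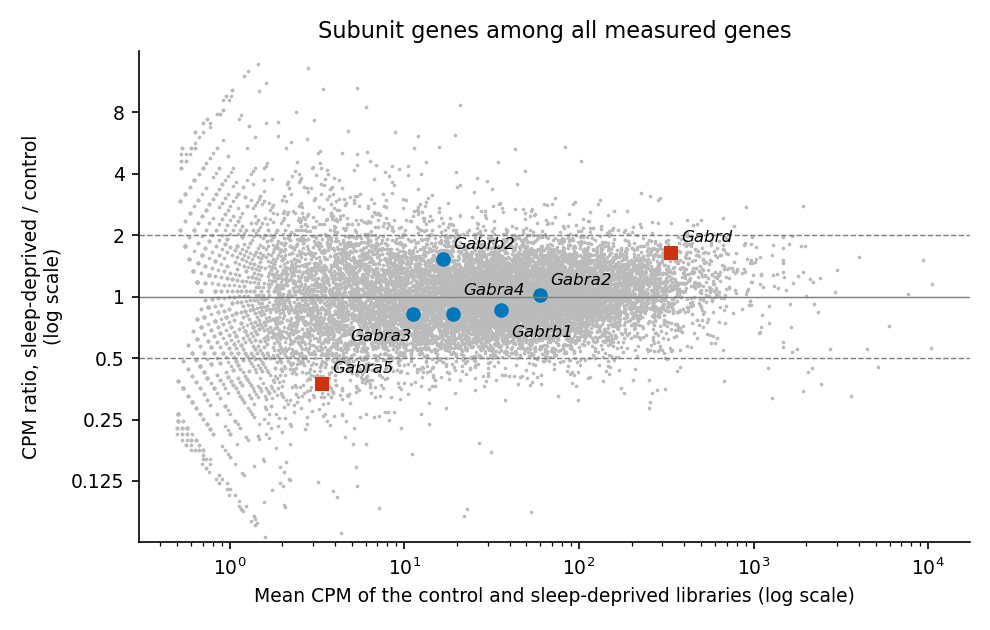
CPM ratio of sleep-deprived over control against mean CPM (both log scale) for the 14907 measured genes (grey; 41 lie outside the plotted ratios), with synaptic members as blue circles and extrasynaptic members as red squares. Gabra5 lies below the dashed 2-fold line at 0.374, and the other 6 members lie between 0.820 and 1.64.

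The members' median ratio was 0.864, with 4 of 7 below 1, against 50.8% of all measured genes below 1. Of the 12 other GABA-A receptor subunit genes 9 were measured, with a median ratio of 0.608, 7 below 1 and 0 called. Genes around the receptor were taken from lists fixed with earlier results of these data known. In each of the 4 lists 0 genes were called, against 9.89% of all measured genes. Among 7 genes for GABA synthesis, release and uptake 6 were below 1, with a median of 0.636. Gad1, which makes GABA from glutamate, was at 275 and 158 CPM (0.575, 0.546 to 0.606). The 22 genes of the inhibitory synapse scaffold and of receptor trafficking had a median of 0.992, with 12 below 1. The adhesion gene Igsf9b was at 220 and 263 CPM (1.20, 1.14 to 1.25).

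Chloride transport sets the direction of the receptor current. Its 8 genes had a median ratio of 1.07, with 3 below 1. The kinase gene Wnk1 was at 438 and 433 CPM (0.988, 0.954 to 1.02) and the chloride exporter gene Slc12a5 at 348 and 378 CPM (1.09, 1.04 to 1.13). Of 8 genes for the metabotropic GABA-B receptor and its partners 7 were measured, with a median of 0.799 and 4 below 1. The receptor subunit gene Gabbr1 was at 251 and 295 CPM (1.18, 1.13 to 1.23), and the potassium channel gene Kcnj9 at 172 and 220 CPM (1.28, 1.21 to 1.34).

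Marker sums of cell types were set beside these ratios. For the counts of markers called, the share over all measured genes was 4.24% higher and 5.65% lower. The 10 genes general to neurons summed to 3831 and 3238 CPM (0.845, 0.835 to 0.856), with 0 called. The 15 cerebellar granule cell markers, which include Gabra6 (570 and 779 CPM, 1.37), summed to 6638 and 6901 CPM (1.04, 1.03 to 1.05), also with 0 called. The 8 Purkinje cell markers summed to 2859 and 1931 CPM (0.676, 0.665 to 0.686), again with 0 called. Of 12 inhibitory neuron markers 11 were found, and these summed to 1248 and 1142 CPM (0.915, 0.896 to 0.935). Of the 9 measured, 8 lay below 1, with a median of 0.673. Reln, the most abundant, took 439 and 592 CPM of these sums (1.35, 1.31 to 1.39), so the summed ratio rests in large part on this gene. Which cells the Reln reads came from was not tested. The 6 CA1 markers summed to 43.0 and 32.2 CPM (0.750, 0.664 to 0.847), with 1 called lower, beside the Gabra5 ratio of 0.374. Markers of glia differed more. Of 19 microglial markers 15 were called higher and 0 lower, and they summed to 210 and 656 CPM (3.12, 2.99 to 3.25). Of 10 astrocyte markers 3 were called lower, and they summed to 2107 and 1281 CPM (0.608, 0.597 to 0.619). Of 9 oligodendrocyte markers 2 were called lower, and they summed to 3566 and 2231 CPM (0.626, 0.617 to 0.634). The part of these markers in the subunit ratios was not tested.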

How the data were processed

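RNA from the tagged ribosome pulldown was enriched for polyA, per the labels' protocols. The submitters' processing notes name Salmon, DESeq2 and mm10, with no versions, and no source used here states strand use. The authors deposited estimated counts per transcript without normalization and TPM in the same files, per the file headers. In the files, 99.2% of transcripts over 1000 bases had an effective length 250 bases below their length. Transcripts were matched without version to GENCODE mouse release 21 (115898 of 116546, 99.4%). Between 0.339% and 0.366% of a file's reads were on unmatched transcripts and left out. Gene sums of the members lay within 0.001 of whole reads.

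Counts of a group's 2 files were averaged, rounded and scaled by TMM in edgeR 4.0.16 (R 4.3.3) over genes kept by filterByExpr with a minimum count of 10. With 1 library per group the edgeR quasi-likelihood and DESeq2 tests were not run. Ratios carry exact conditional 95% intervals, for counting error only, and a library under 3 reads was set to 3 for the fold. A gene was called at 2-fold or more with an interval excluding 1. The rule was tried on simulated counts that held counting error and no variation between animals. That trial therefore cannot tell how the rule fares under such variation. Group ratios were compared by the exact conditional odds ratio in scipy 1.17.1. Depth was nearly equal in the files, and the reads behind each value set its interval.

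Every member was named, with transcripts holding at least 10% of its reads, and from each list the called genes and the 2 of highest mean CPM were eligible to be named, of which some are not reported here. Minor transcripts, Gabra6 and the cerebellar, Purkinje and telencephalic lists were added after values were seen. Members and lists were chosen with earlier results of these data known. Alternatives were other scalings, a length offset, TPM, single files, other folds, groupings and filters.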

Additional observations from a re-analysis of the deposited data

How the results depend on the processing

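No paired analysis was possible because files within a group matched more closely than sampling noise, which left 1 library per group. For the same reason the edgeR, DESeq2 and replicate block tests were not run. Leaving out each file in turn and other scaling factors kept the group ratios within their counting intervals. These settings and no filter on low counts kept each count of called genes within 1.5 times its value. With a transcript length offset the extrasynaptic ratio was 1.49, and it was 1.47 times the synaptic ratio. On TPM the synaptic ratio was 1.21, the extrasynaptic ratio 1.74 and their quotient 1.44, with 1375 genes called higher. Gabra4 and Gabrb1 both crossed to 1.01 on TPM. Relative to the median measured gene, whose TPM ratio was 1.16, they were at 0.870 and 0.869. With coding transcripts only, Gabrd turned to 0.680, the synaptic ratio was 0.876, the extrasynaptic ratio 0.665 and their quotient 0.759. Without Gabrd the quotient was 0.383. At 1.5-fold, 3 members were called (Gabra5 lower, Gabrb2 and Gabrd higher). Of all 14907 measured genes 1856 were then called higher and 2031 lower, against 632 and 842 at 2-fold. The larger members' count thus came with more calls over all genes. The cause of the shifts under the length offset and TPM was not tested. The 26 reads of Gabra5 limit its ratio to between 0.229 and 0.592.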

Other observations

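The regional makeup of the libraries can be read gene by gene. Cbln1, a synapse organizer released by cerebellar granule cells, was at 548 and 555 TPM in the control and sleep-deprived libraries. Fat2 was at 146 and 153 TPM and the transcription factor gene Zic1 at 278 and 374 TPM. The Purkinje cell gene Pcp2 was at 651 and 681 TPM. The forebrain gene Emx1 had 2 and 0 reads, and Emx2 had 0 and 2, while Camk2a of the same list had 532 and 508 reads. Prox1, found in dentate granule cells but also elsewhere, was at 8.37 and 10.8 TPM, and the dentate gene C1ql2 had 4 and 3 reads.

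The astrocyte markers called lower were Gfap (127 and 54.3 CPM), Aqp4 (138 and 63.9 CPM) and S100b (364 and 142 CPM). The oligodendrocyte markers called lower were Mbp (1665 and 747 CPM) and Opalin (18.9 and 3.18 CPM). The 7 endothelial markers summed to 162 and 158 CPM (0.978, 0.923 to 1.04), with 0 called. The 9 dentate granule cell markers summed to 538 and 355 CPM (0.660, 0.637 to 0.684), of which Calb1, a gene that Purkinje cells also express, took 428 and 239 CPM. The 6 CA3 markers summed to 221 and 232 CPM (1.05, 0.999 to 1.10).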
